A study of Homo sapiens with 6 samples.

Results

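The genes described here are 10 members of the transforming growth factor beta (TGF-beta) pathway: the ligand genes TGFB1 and TGFB2, the receptor genes TGFBR1 and TGFBR2, the signal-carrying SMAD2, SMAD3 and SMAD4, and the feedback genes SMAD7, SKIL and PMEPA1. They were taken by symbol from a table of 33542 genes, and all 10 were found and passed the filter on low counts. The libraries came from T24, an established human cell line labelled as bladder tumour cells, in which TRAIP was targeted by RNA interference (siTRAIP, 3 libraries) or which received a control (siNC, 3 libraries). Both groups received a transfection reagent and a small interfering RNA, no untransfected cells are labelled, and the time after transfection is not given in the sources used here. The table's column names carry a single code for the TRAIP small interfering RNA, and whether it is 1 duplex or a pool is not stated. The study asked, per its design text, what changes downstream of TRAIP, a RING-type ubiquitin ligase gene, in bladder cancer cells.

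TGF-beta ligands are secreted in a latent form and, once released, bind the type II receptor (TGFBR2), which recruits and phosphorylates the type I receptor (TGFBR1). The type I receptor phosphorylates SMAD2 and SMAD3, which join SMAD4 and enter the nucleus to regulate transcription. Among the genes they induce are inhibitors of the same pathway: SMAD7 blocks and degrades the type I receptor, SKIL is a corepressor that binds SMADs, and PMEPA1 keeps SMAD2 and SMAD3 from the receptor. In epithelial cells the pathway is known both for growth arrest and, in carcinoma, for the shift towards a mesenchymal state.

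Library depth was between 39111793 and 70439496 counts. By the chi-square statistic of their counts per degree of freedom, siTRAIP replicate 3 stood apart from the other siTRAIP libraries (15.8 and 16.4, against 3.20 between those and 4.30 to 7.32 between siNC libraries). Among genes whose leave-one-out fits are given, results without that library are stated where it changes a call. The called genes KRT7, CD68, MAP3K7, TPM1 and JUNB are not among these. The targeted gene TRAIP stood at 26.6, 28.3 and 28.4 CPM (counts scaled to a common library size, with TMM factors) in the siNC libraries and at 12.5, 14.7 and 11.6 CPM in the siTRAIP libraries (log2 fold change -1.11 ± 0.07 SE; adjusted p by edgeR = 6.74e-10), so every library matched its label. MYC, the transcription factor gene of the series title, had a log2 fold change of -0.11 ± 0.05 (SE; adjusted p by edgeR = 0.219) and passed with total-count scaling alone (-0.17, adjusted p = 0.0379). Of 17 urothelial markers 10 were tested, and their summed level was 3501 to 3561 CPM with siNC and 3195 to 3488 CPM with siTRAIP, nearly all of it from the keratins KRT7, KRT8 and KRT18; KRT7 fell and the other 9 were not called. The remaining tested markers had siNC means of 20.7 (KRT19), 18.4 (PPARG), 3.05 (FOXA1), 1.30 (EPCAM), 0.893 (the uroplakin gene UPK2), 0.196 (ELF3) and 0.173 CPM (GATA3). Of the untested ones, the E-cadherin gene CDH1 had at most 0.102 CPM in any library and the uroplakin gene UPK3A at most 0.029 CPM. The mesenchymal markers VIM, FN1, CDH2 and ZEB1 summed to 1417 to 1490 CPM over the 6 libraries. Markers of endothelium summed to at most 0.211 CPM and those of fibroblasts to at most 1.43 CPM in 5 libraries and to 5.38 CPM in siTRAIP replicate 3, most of it from COL1A1 (4.26 CPM). The leukocyte list reached 34.2 to 46.1 CPM, almost all of it from CD68, which rose and was the only one of that list to be tested. RP11-186B7.4, on the same strand, overlaps 81.7% of the CD68 exonic bases, so the CD68 counts are uncertain, and its call was lost with limma. The part of these markers in the results was not tested, and in bulk RNA fewer cells of a type and less RNA per cell cannot be told apart. The labels do not tell whether the 3 libraries of a group are separate cultures; p-values here reflect the spread among these libraries alone, and that spread may be technical.

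Knockdown of TRAIP was accompanied by small differences in these 10 transcripts. TGFBR1 rose, TGFBR2 fell, and the other 8 did not pass the test (edgeR quasi-likelihood test, adjusted p under 0.05 over all genes tested). Over the 18685 genes tested, 12.8% were called (7.47% rose and 5.34% fell), so 2 of 10 is a share near that of all genes. The split over all genes depended on the scaling: 1396 rose and 997 fell with TMM factors, and 838 rose and 2050 fell with total counts only. The siTRAIP range lay wholly above the siNC range for TGFBR1, against 14.8% of all genes tested, and wholly below it for TGFB2, TGFBR2 and SKIL, against 14.4%; either was the case for 29.1%. The median log2 fold change of the 10 genes was -0.04, and that of all genes tested was -0.002. The sizes were small: apart from TGFB2, which was near the lower end of detection, the log2 fold changes lay between -0.16 and 0.25.

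**Figure D1:**
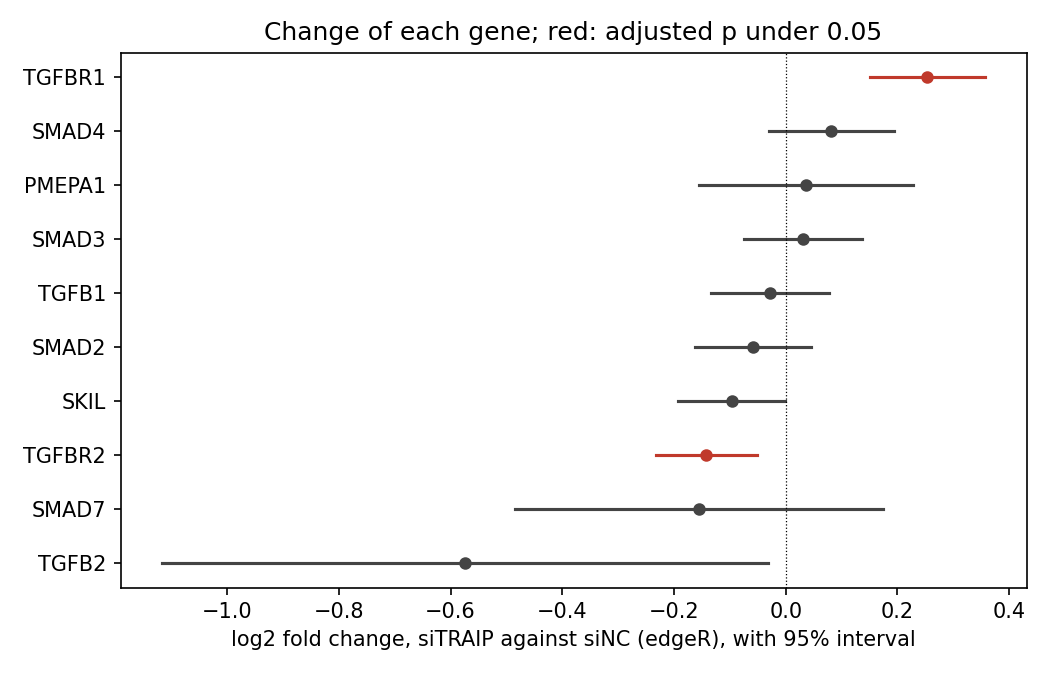
Log2 fold change of each of the 10 genes (siTRAIP against siNC, edgeR) as points with 95% intervals that are not adjusted for the number of genes; red marks an adjusted p under 0.05. TGFBR1 lies at 0.25 and TGFBR2 at -0.14, on opposite sides of 0, and TGFB2 has the widest interval, from -1.12 to -0.03.

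The type I receptor gene TGFBR1 (chromosome 9, 99104038 to 99154192, plus strand, GRCh38) was measured at 38.2, 35.9 and 35.3 CPM in the siNC libraries and at 42.2, 43.8 and 44.3 CPM in the siTRAIP libraries. All 3 siTRAIP values lay above all 3 siNC values. The means were 36.5 ± 1.54 and 43.5 ± 1.09 CPM (SD, n = 3 each), a 1.19-fold rise with a 95% interval from 1.11 to 1.28 and a log2 fold change of 0.25 ± 0.05 (SE; adjusted p by edgeR = 0.00112). The call held without any 1 library and was lost with limma on log2(RPKM + 0.1), where the log2 fold change was 0.19 (adjusted p = 0.0688), and on log2(RPKM + 1), where it was 0.16 (adjusted p = 0.0715). RPKM, the deposited unit scaled to exonic length, uses the total count and no TMM factor. With edgeR on total counts only the call held (log2 fold change 0.19, adjusted p = 0.0117).

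The type II receptor gene TGFBR2 (chromosome 3, 30606502 to 30694142, plus strand) moved the other way. Its libraries gave 87.62, 84.06 and 88.97 CPM with siNC and 79.27, 80.02 and 77.03 CPM with siTRAIP, again without overlap. Averaging 86.9 ± 2.54 and 78.8 ± 1.56 CPM (SD, n = 3 each), the groups differed by a fold of 0.906 with a 95% interval from 0.851 to 0.965 (log2 fold change -0.14, SE 0.04, edgeR adjusted p = 0.0325). This call was marginal. It was lost without siNC replicate 1 (adjusted p = 0.125), siNC replicate 3 (0.117), siTRAIP replicate 1 (0.0746) or siTRAIP replicate 2 (0.0552), while the log2 fold change stayed between -0.20 and -0.13 in all 16 alternatives.

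Because the receptor genes moved in opposite directions, their ratio was also taken within each library, where library scaling cancels; this was chosen after their values were seen. The TGFBR1 RPKM was 0.300, 0.294 and 0.273 of the TGFBR2 RPKM in the siNC libraries and 0.366, 0.376 and 0.396 in the siTRAIP libraries. The ratio thus averaged 0.289 ± 0.014 and 0.379 ± 0.015 (SD, n = 3 each) and was higher in 3 of 3 siTRAIP libraries than in any siNC library, a difference of 0.39 on the log2 scale. Since the pair was chosen for its opposite differences, the ratio is a description and was given no test. TGFBR2 remained the more abundant receptor transcript per length in every library.

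**Figure D2:**
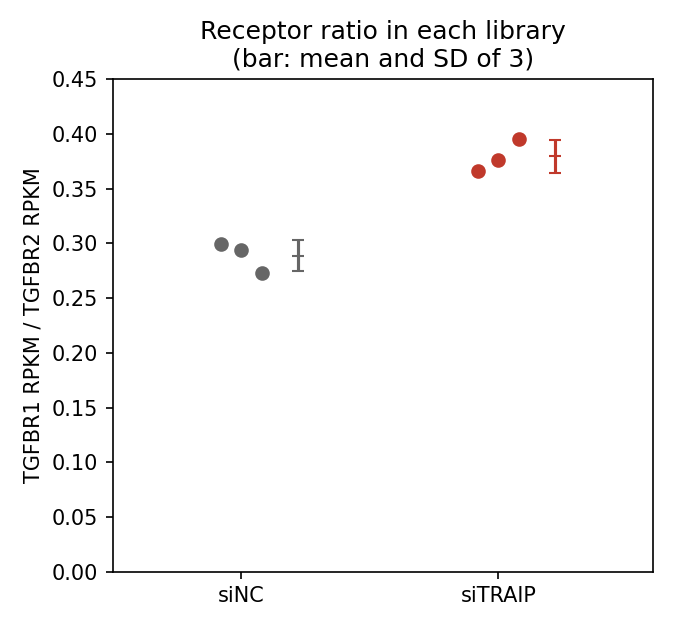
Ratio of TGFBR1 RPKM to TGFBR2 RPKM in each library (points), with the mean and SD of each group of 3. The siNC libraries lie between 0.273 and 0.300 and the siTRAIP libraries between 0.366 and 0.396.

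Short sequence words were looked up in the members because an earlier look at these same fold changes had found 2 overlapping 7-base words, ACAGTCT and CAGTCTA, more often in genes that fell, and TCGGAGA and CGGAGAA more often in genes that rose. The words were chosen on data that include these genes, so a match supports nothing. The sense strand of the coding sequence and 3' UTR of 1 GENCODE v29 transcript per gene was searched, and 28.8% of 8792 expressed protein-coding genes held a word of the first pair (46.0% of called falls and 24.9% of called rises). TGFBR2 holds CAGTCTA once, in its 3' UTR (within chr3:30692965-30692993, plus strand), and SKIL once, in its coding sequence (within chr3:170384586-170384614, plus strand). In TGFBR2 4322 bases were searched and in SKIL 6473, against a median of 3071.5 over all genes searched. The 28.8% is therefore not matched for length. TGFBR1 and TGFB2 hold neither pair. SMAD2 holds words of the first pair at 9 start positions, some of them in overlapping matches, in 34274 bases searched. Of genes with at least 10000 bases searched, 75.3% hold one. Words of the other pair are present once each in the coding sequences of TGFB1 and PMEPA1 and in the 3' UTR of SMAD2, none of which was called; 18.8% of all genes searched hold one (33.27% of called rises and 13.99% of called falls). The PMEPA1 word lies within chr20:57653051-57653079 (minus strand), and the 29 bases shown for TGFB1 span an exon junction on chromosome 19. The sites in the 4 genes with a single match are shown 5′ to 3′ with the word in capitals and 11 bases on each side.
TGFBR2 site: tacctggacccCAGTCTAggaattaaatc
SKIL site: ctgctgtatccCAGTCTAaagagctcaca
TGFB1 site: cttcagctccaCGGAGAAgaactgctgcg
PMEPA1 site: gcctgtggcccTCGGAGAgcacagtgtca

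Of the ligand genes, TGFB1 was abundant and did not pass the test. TGFB1 (chromosome 19, 41301587 to 41353911, minus strand) encodes the most widely expressed TGF-beta ligand and gave 43.3, 42.0 and 39.6 CPM with siNC and 41.8, 41.7 and 39.1 CPM with siTRAIP. The groups overlapped almost completely. The log2 fold change was -0.03 ± 0.05 (SE; adjusted p by edgeR = 0.8) and 0.0037 without siTRAIP replicate 3, and its 95% interval in folds ran from 0.911 to 1.06. HNRNPUL1, on the other strand, overlaps 6.64% of the TGFB1 exonic bases, and the sources used here do not tell whether reads were counted by strand.

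TGFB2 (chromosome 1, 218346235 to 218444619, plus strand), which encodes a ligand that needs a co-receptor for efficient binding to TGFBR2, was counted only 66, 51 and 54 times in the siNC libraries and 24, 20 and 60 times in the siTRAIP libraries. On the depth-adjusted scale these were 1.15, 0.921 and 0.905 CPM against 0.632, 0.440 and 0.870 CPM. Every siTRAIP value lay below every siNC value, with siTRAIP replicate 3 just under the lowest siNC library and far from the other siTRAIP libraries. The log2 fold change was -0.57 ± 0.26 (SE; adjusted p by edgeR = 0.172) and became -0.90 (adjusted p = 0.0448) without siTRAIP replicate 3 and -0.36 (0.452) without siTRAIP replicate 2. TGFB2-OT1, on the same strand, overlaps 26.6% of the TGFB2 exonic bases, so its counts are uncertain. TGFB3, the remaining TGF-beta isoform gene, stood at 2.17 ± 0.231 CPM with siNC and 2.41 ± 0.162 CPM with siTRAIP (SD, n = 3 each; edgeR adjusted p = 0.583).

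None of the 3 signal-carrying SMAD genes passed the test. SMAD2 (chromosome 18, 47808957 to 47931146, minus strand) gave 47.6, 43.1 and 46.4 CPM with siNC and 43.5, 43.3 and 44.9 CPM with siTRAIP, with a log2 fold change of -0.06 ± 0.05 (SE; adjusted p by edgeR = 0.526). SMAD3 (chromosome 15, 67063763 to 67195195, plus strand) gave 50.8, 52.4 and 46.6 CPM against 49.4, 51.3 and 52.3 CPM, a log2 fold change of 0.03 ± 0.05 (SE; adjusted p by edgeR = 0.775) whose sign turned with total-count scaling (-0.03) and without siNC replicate 3 (-0.02). These receptor-regulated SMADs are direct substrates of TGFBR1, and all siTRAIP libraries lay inside the siNC range for both genes.

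SMAD4 (chromosome 18, 51028394 to 51085045, plus strand), the shared partner of the receptor-regulated SMADs, was measured at 28.2, 27.9 and 29.3 CPM with siNC and 30.7, 29.2 and 30.6 CPM with siTRAIP. One siTRAIP library, replicate 2, lay inside the siNC range and the other two above it. The log2 fold change was 0.08 ± 0.05 (SE; adjusted p by edgeR = 0.382). The 95% intervals in folds ran from 0.894 to 1.03 for SMAD2, from 0.950 to 1.10 for SMAD3 and from 0.980 to 1.14 for SMAD4. A same-strand gene overlaps 7.37% of the SMAD4 exonic bases, and an antisense gene 2.00% of those of SMAD3.

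**Figure D3:**
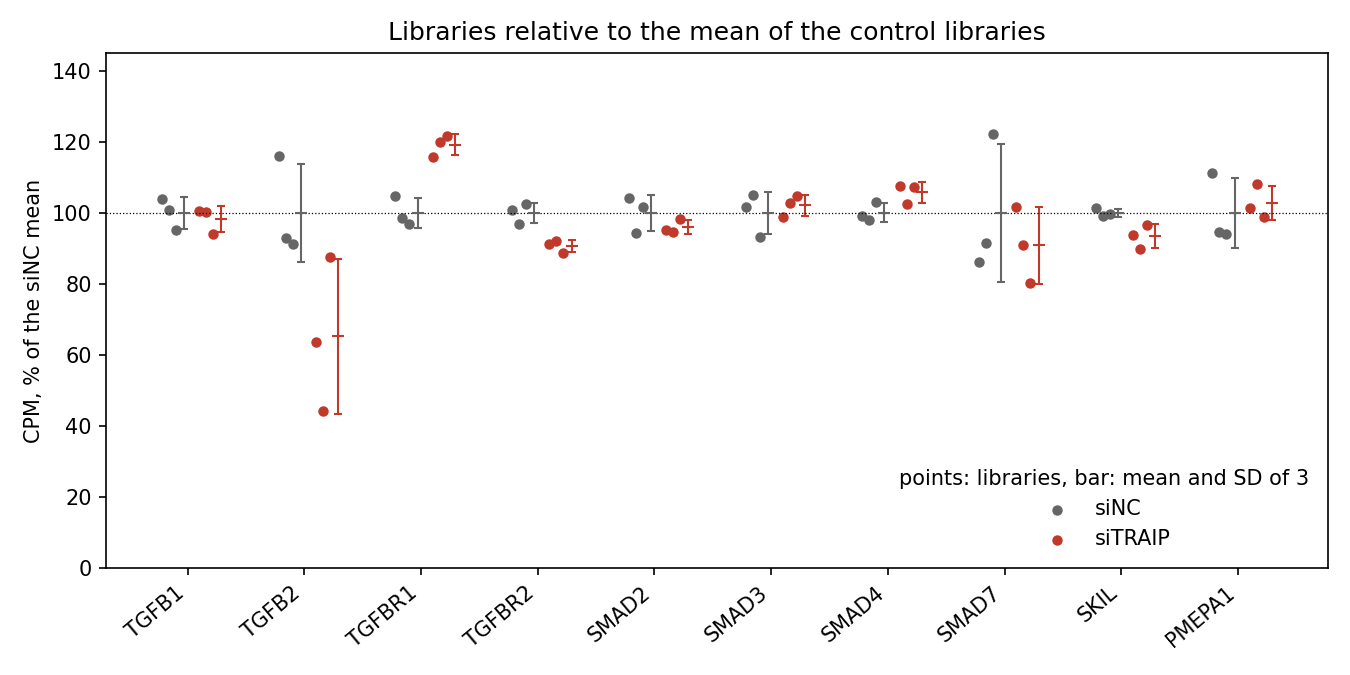
CPM of each library as a percentage of the gene's siNC mean, with the mean and SD of each group of 3 libraries. The siTRAIP points of TGFBR1 stand above the siNC points and those of TGFBR2, SKIL and TGFB2 below them, while TGFB1, SMAD2, SMAD3, SMAD4, SMAD7 and PMEPA1 overlap.

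The feedback genes, which are induced by SMAD signalling in many cell types, showed no called change. SKIL (chromosome 3, 170357678 to 170396835, plus strand), which encodes the corepressor SnoN, gave 56.8, 55.5 and 55.9 CPM with siNC and 52.6, 50.4 and 54.2 CPM with siTRAIP. The groups did not overlap, and the gap between the lowest siNC and the highest siTRAIP library was narrow. The log2 fold change was -0.10 (SE 0.05, unadjusted p = 0.0491, edgeR adjusted p = 0.199), and with total-count scaling it was -0.16 and passed (adjusted p = 0.0249).

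SMAD7 (chromosome 18, 48919853 to 48950711, minus strand), the inhibitory SMAD, was low, with 100 to 189 counts per library. Its values were 2.23, 2.37 and 3.17 CPM with siNC and 2.63, 2.35 and 2.07 CPM with siTRAIP. The highest control library, siNC replicate 3, carried the difference: the log2 fold change of -0.16 ± 0.16 (SE; adjusted p by edgeR = 0.612) was 0.02 without it. At this depth the 95% interval ran from 0.715-fold to 1.13-fold, so a change of the size seen for TGFBR2 was not detectable.

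PMEPA1 (chromosome 20, 57648392 to 57711536, minus strand), a membrane protein gene often used as a readout of TGF-beta signalling, gave 8.35, 7.10 and 7.07 CPM with siNC and 7.61, 8.11 and 7.41 CPM with siTRAIP. All siTRAIP libraries lay within the siNC range. The log2 fold change was 0.04 ± 0.09 (SE; adjusted p by edgeR = 0.865), with a 95% interval in folds from 0.898 to 1.17 and a sign that turned with total-count scaling (-0.02) and, to values closer to 0 still, without siNC replicate 2 or 3 or siTRAIP replicate 2 (-0.0047, -0.0086 and -0.0016). The antisense gene NKILA overlaps 6.10% of the PMEPA1 exonic bases.

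Per length, TGFBR2 was the most abundant of the 10 transcripts in both groups, at 18.9 ± 0.719 RPKM in siNC and 16.4 ± 0.381 RPKM in siTRAIP (SD, n = 3 each). TGFB1 followed at 13.1 ± 0.561 and 12.4 ± 0.466 RPKM, and SKIL at 7.35 ± 0.134 and 6.59 ± 0.218 RPKM. SMAD3 (5.59 ± 0.293 RPKM) and TGFBR1 (5.44 ± 0.239 RPKM) overlapped in their ranges in siNC. In siTRAIP TGFBR1 (6.22 ± 0.195 RPKM) lay above SMAD3 (5.48 ± 0.187 RPKM) without overlap, so the means of that pair changed places. SMAD4 came next at 2.22 RPKM in siNC and 2.25 RPKM in siTRAIP, then PMEPA1 at 1.36 and 1.34 RPKM and SMAD2 at 1.28 and 1.18 RPKM, and PMEPA1 and SMAD2 overlapped in siNC. SMAD7 (0.716 and 0.624 RPKM) and TGFB2 (0.197 and 0.123 RPKM) were the lowest, and all other neighbours in either order had ranges that did not overlap. The TGFB1 level was 59.9 to 72.6 times the TGFB2 level in the siNC libraries and 71.5 to 151 times in the siTRAIP libraries.

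The place of SMAD2 depends on the length used. Its RPKM is divided by 36366 exonic bases, against 3238 to 13123 for the other 9 genes, because the annotation holds a SMAD2 transcript of 34526 bases; coding transcripts of SMAD2 in GENCODE v29 range from 527 to 34526 bases. Reads from shorter isoforms would therefore count for less, and which isoforms are present was not tested.

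**Figure D4:**
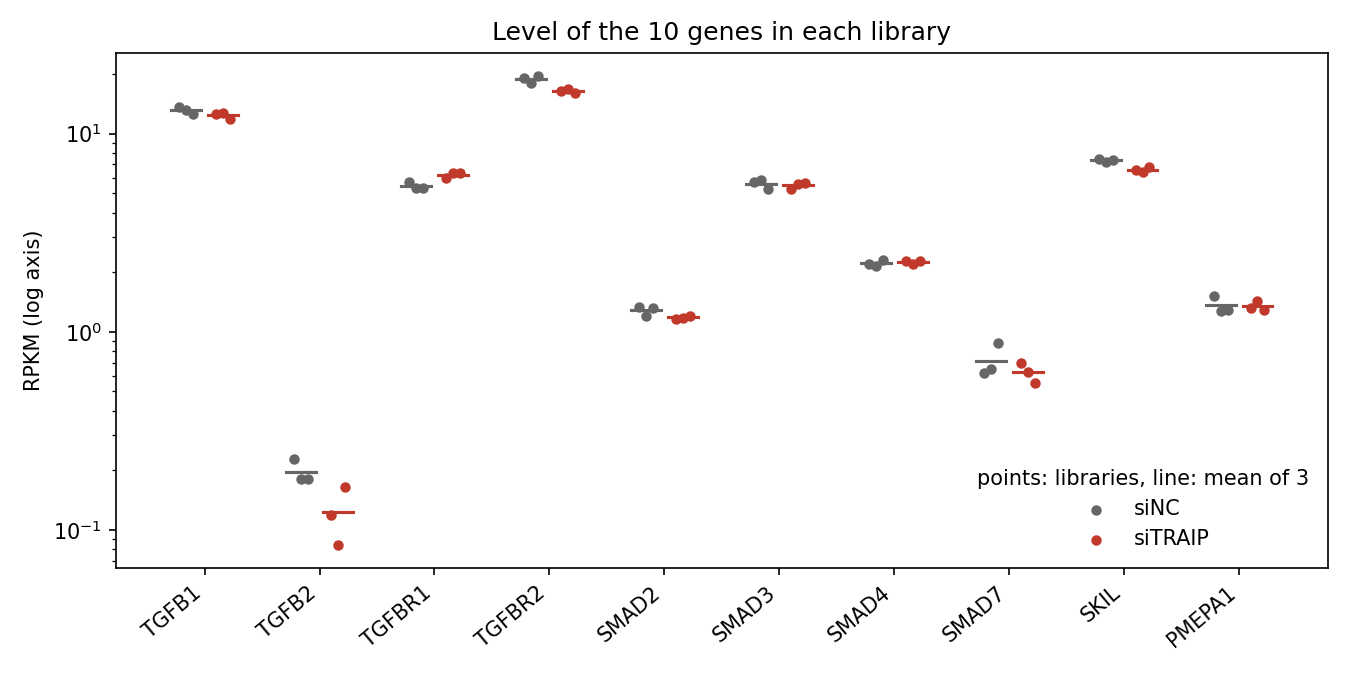
RPKM of each gene in each library on a log axis, with the mean of each group as a line. TGFBR2 and TGFB1 lie above 10 RPKM and TGFB2 below 0.3 RPKM in every library.

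The rest of the pathway was read from 8 lists of 122 genes, of which 96 were tested. Of these, 5 rose (5.21%) and 15 fell (15.6%), with a median log2 fold change of -0.02. Over all genes tested 7.47% rose, 5.34% fell, 12.8% were called and the median was -0.002. These shares are the comparison for each list. The lists were chosen with earlier results of these data known and no set test was run, so the larger share of falls is a description. In the list of latency and activation genes, 1 rose and 2 fell of 10 tested (median 0.04). LTBP3, which tethers latent TGF-beta to the matrix, rose from 30.1 ± 1.87 to 38.0 ± 2.64 CPM (SD, n = 3 each), a log2 fold change of 0.34 ± 0.06 (SE; adjusted p by edgeR = 3.14e-04); on the RPKM scales its call was lost (adjusted p = 0.0793 and 0.0848). The microfibril protein gene LTBP2 and FURIN, a convertase that cleaves TGF-beta precursors, had log2 fold changes of -0.13 and -0.20 (SE 0.04 and 0.07, edgeR adjusted p = 0.0421 and 0.0472). Both were marginal: the LTBP2 call was lost without any 1 library other than siTRAIP replicate 3, and the FURIN call without any 1 library.

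Of 7 tested activin, nodal and GDF ligands and inhibitors 1 fell (median -0.05). INHBA, the subunit gene of activin A, a ligand that also signals through SMAD2 and SMAD3, gave 107, 107 and 103 CPM with siNC and 82.6, 87.9 and 83.4 CPM with siTRAIP. Its log2 fold change of -0.32 ± 0.04 (SE; adjusted p by edgeR = 1.47e-05) passed in all 16 alternatives. Of 11 other receptors and co-receptors tested 1 fell (median -0.15): TGFBR3, which encodes the ligand-presenting co-receptor betaglycan, went from 4.19 ± 0.482 to 3.09 ± 0.490 CPM (SD, n = 3 each; log2 fold change -0.45, SE 0.13, edgeR adjusted p = 0.0249), and was called in 9 of 16 alternatives. Leaving out siNC replicate 1 (adjusted p = 0.0604) or 3 (0.148), or siTRAIP replicate 2 (0.126) or 3 (0.0585), ended the call.

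Among 17 other SMADs and SMAD partners 1 rose and 4 fell (median -0.03). TAB2, an adaptor of the TAK1 kinase, fell by 0.30 (SE 0.05, edgeR adjusted p = 5.48e-05), the corepressor gene TGIF1 by 0.25 (SE 0.06, 0.00688) and ZFYVE9, whose product SARA presents SMAD2 to the receptor, by 0.25 (SE 0.06, 0.0103) on the log2 scale. The TAK1 gene MAP3K7 was the other fall (log2 fold change -0.17), and SKI, the paralog of SKIL, rose by a log2 fold change of 0.21 ± 0.05 (SE; adjusted p by edgeR = 0.00652). Leaving out siNC replicate 2 ended the ZFYVE9 call (adjusted p = 0.0672), as did leaving out siTRAIP replicate 2 (0.0769), and SKI was not called without siNC replicate 2 (0.0638) or siTRAIP replicate 1 (0.0539), with total-count scaling (0.0535) and on the RPKM scales (0.136 and 0.138). Of 12 tested ubiquitin ligases, deubiquitinases and phosphatases 2 fell (median -0.03). SMURF2, a ligase that SMAD7 brings to the receptor, gave 357, 342 and 339 CPM with siNC and 272, 269 and 286 CPM with siTRAIP, a log2 fold change of -0.33 ± 0.04 (SE; adjusted p by edgeR = 7.97e-06). NEDD4L, a ligase for activated SMAD2 and SMAD3, had one of -0.19 (SE 0.04, edgeR adjusted p = 0.00192), and the SMURF2 and NEDD4L calls held in all 16 alternatives.

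Target genes of TGF-beta went both ways: of 27 tested 3 rose and 4 fell (median 0.01). The collagen gene COL4A1 and the transcription factor gene BHLHE40 rose by log2 fold changes of 0.29 and 0.37 (SE 0.04 and 0.06, edgeR adjusted p = 7.29e-05 and 1.11e-04). CCN2, listed under its older name CTGF, fell from 45.4 ± 0.209 to 36.1 ± 1.48 CPM (SD, n = 3 each) and HMGA2 from 188 ± 6.21 to 81.9 ± 1.72 CPM. Their log2 fold changes were -0.33 and -1.20 (SE 0.05 and 0.04, edgeR adjusted p = 4.99e-05 and 5.33e-15). Both calls held in all 16 alternatives. TPM1 and JUNB were the other falls, with log2 fold changes of -0.18 and -0.46.

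**Figure D5:**
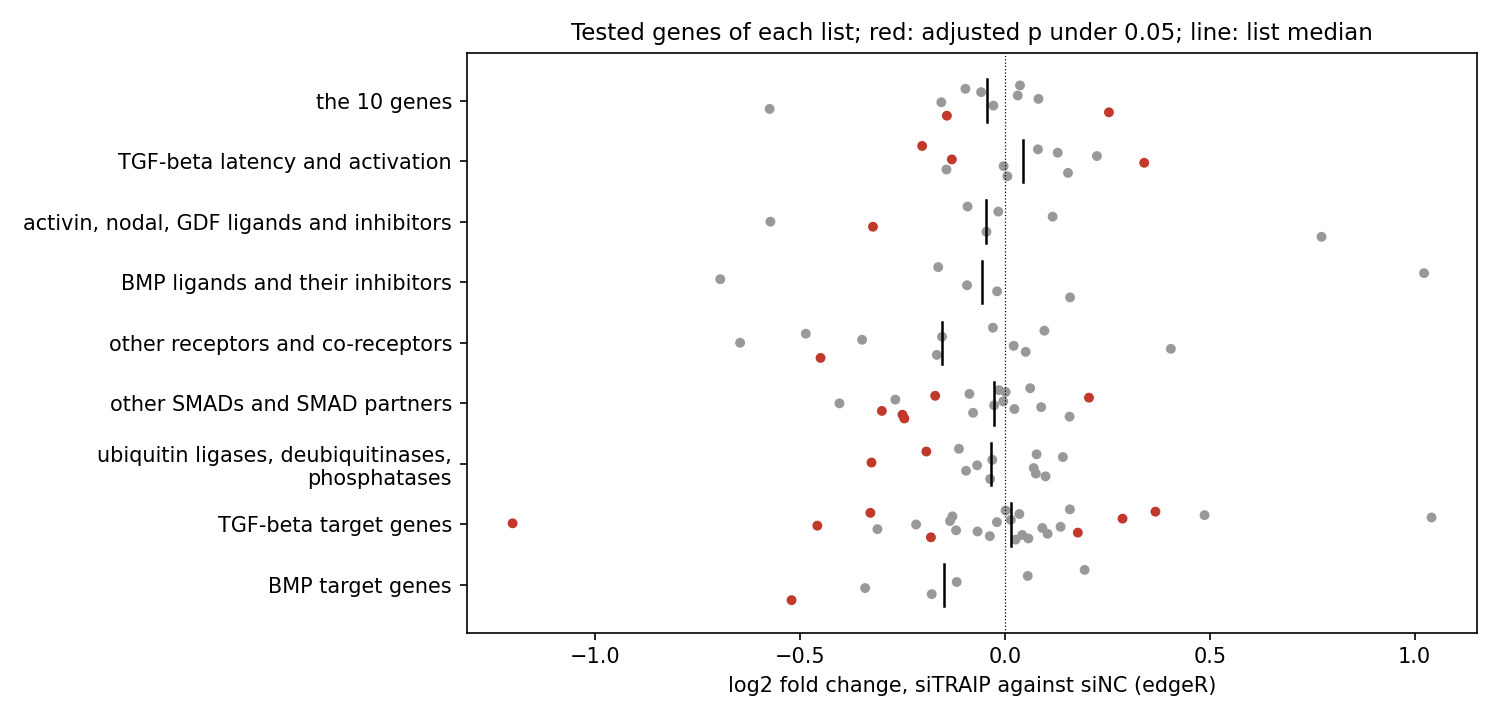
Log2 fold change of every tested gene of the 10 members and the 8 lists (siTRAIP against siNC, edgeR); red marks an adjusted p under 0.05 and the black line the list median. Medians lie between -0.15 and 0.04, and called genes appear on both sides of 0 among the members, the latency genes, the SMAD partners and the TGF-beta targets.

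The pattern of TGFBR1 over the 6 libraries was compared with 9176 protein-coding genes of at least 5 CPM. The nearest, by the root mean square difference of log2 CPM centred on each gene's mean, were RPL26L1 (0.0183), FOXN3 (0.0187) and SPATA21 (0.0249), against a median of 0.151 over these genes. They encode a ribosomal protein paralog, a forkhead repressor and a spermatogenesis-associated protein, and had log2 fold changes of 0.26, 0.26 and 0.27. Because these genes were picked for the smallest difference, the close match and similar fold changes follow from the selection.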

How the data were processed

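Gene counts of 6 libraries (3 siNC, 3 siTRAIP; groups and replicate numbers from the sample titles) were analysed. The deposited table holds, from the authors, counts as whole numbers and RPKM values that equal count over exonic length and total gene count within a relative difference of 1.3e-06. Tools listed in the submitters' processing notes are Subread 1.5.1 and featureCounts, with Trimmomatic 0.36 and the build GRCh38; the annotation release and counting options are not given there. Of counts from 1 to 10, 70.2% were even, against 50.8% above 1000, so both reads of a pair may have been counted and totals may exceed fragments. Per the labels' protocols the kit was a stranded mRNA kit.

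The main test was edgeR 4.0.16 (R 4.3.3): filterByExpr, TMM factors, robust quasi-likelihood fit and F-test, 2-sided, p-values adjusted by Benjamini-Hochberg over the 18685 genes tested (threshold 0.05). SE is the log2 fold change over the square root of F, and 95% intervals use its t quantile. The script was tested on simulated data. Alternatives were DESeq2 1.42.0, limma 3.58.1 on log2(RPKM + 0.1) and log2(RPKM + 1), other scalings and filters, robust=FALSE, halved counts, the replicate block and each library left out. Fold changes on those limma scales understate low genes. Positions and overlaps come from the deposited exon coordinates, and CCN2 was matched by an older symbol in RefSeq.

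The members and lists were chosen with earlier results of these data known. Named genes are TRAIP, MYC, the 10 members, up to 4 called genes of each list with the smallest adjusted p, HMGA2 and CCN2, and the 3 genes nearest in pattern to the member with the smallest p; TGFB3, MAP3K7, TPM1, JUNB, ID1, ID3 and BMP2, for which no alternatives are given, were named after their values were seen. One named gene of the TGF-beta target list is not reported here, though it is in the counts. The word search used the transcript with the longest coding sequence, genes whose mean CPM reached 5 and whose 3' UTR reached 50 bases.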

Additional observations from a re-analysis of the deposited data

How the results depend on the processing

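TRAIP passed in all 16 alternatives (log2 fold change -1.21 to -0.99). TGFB1, SMAD2, SMAD3, SMAD4, SMAD7 and PMEPA1 passed in none, TGFBR1 in 14 and TGFBR2 in 11. Of 288 values of other named genes, 249 kept their side of the threshold, 38 lost the call, 1 gained it and none changed sign. TGFB2 is dropped by the filter on a CPM of 1, has no adjusted p with DESeq2, and at 20 to 66 counts is limited by depth; SMAD7 is too. Where the cause of a change is not in the alternative's construction, the cause was not tested.

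With total counts only, the median over all genes was -0.06 (log2), 838 genes rose and 2050 fell, against 1396 and 997; of the 10 members 2 fell, SKIL being called (-0.16), of the other pathway genes 3 rose, and SMAD3 (-0.0285) and PMEPA1 (-0.0233) changed sign. On log2(RPKM + 0.1) and log2(RPKM + 1), 1521 and 1517 genes were called, 454 and 450 rose, 1 member was called and 0 rose, 2 pathway genes rose, and TGFBR1 was 0.19 and 0.16, SMAD3 -0.0286 and -0.0247, and PMEPA1 -0.0169 and -0.0111. TMM-scaled RPKM gave 7.20 for SKIL in siNC, and 1.21 for SMAD2 and 2.30 for SMAD4 in siTRAIP.

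With the replicate block, 1 member was called and 0 fell, TGFBR2 being -0.14 (adjusted p = 0.0633), and 2145 genes were called in all. No pairing by number was visible in the counts: the correlations of same-numbered deviations were 0.03, -0.09 and -0.02, and only replicate 1 correlated best with its own number. Whether same-numbered libraries were prepared together is not labelled, and these correlations cannot tell.

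Leaving out 1 library at a time gave 1480 (without siNC replicate 1) to 2622 calls over all genes, 878 to 1471 rises and 602 to 1151 falls. Members gave 1 to 3 calls and 0 to 2 falls, and the pathway lists 13 to 22 calls, 3 to 7 rises and 10 to 15 falls. Log2 fold changes ranged from -0.0669 to 0.0037 for TGFB1, -0.90 to -0.36 for TGFB2, -0.17 to -0.13 for TGFBR2, -0.0195 to 0.0640 for SMAD3, -0.25 to 0.0156 for SMAD7 and -0.0086 to 0.12 for PMEPA1.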

Other observations

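The BMP arm of the same family, whose ligands signal through other SMADs, gave 1 call. The list of BMP ligands and inhibitors, which also holds the protease gene BMP1, had 6 tested genes. Of these 0 passed with edgeR, DESeq2 or limma, and 2 had an unadjusted edgeR p under 0.05, both higher in siTRAIP. Of 6 tested BMP target genes 1 fell. The list medians were -0.06 and -0.15. The target that fell was MSX1, a homeobox gene, at 3.94 ± 0.496 CPM with siNC and 2.77 ± 0.260 CPM with siTRAIP (SD, n = 3 each; log2 fold change -0.52 ± 0.13 SE; adjusted p by edgeR = 0.00933). Leaving out siNC replicate 2 ended that call (adjusted p = 0.0836). The ID1 and ID3 genes, usual readouts of BMP signalling, had log2 fold changes of -0.12 and -0.18 (SE 0.10 and 0.12, edgeR adjusted p = 0.546 and 0.41). BMP2 was low in all libraries, at 0.400 ± 0.234 CPM with siNC and 0.828 ± 0.071 CPM with siTRAIP (SD, n = 3 each), and its log2 fold change was 1.02 ± 0.36 (SE; adjusted p by edgeR = 0.065).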
